A study of Caenorhabditis elegans with 5 samples.

Results

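The 200 most abundant sperm-class genes of *C. elegans* outside the *msp*, *ssp* and *nspd* families were followed in messenger RNA of whole young adults. They were taken from a deposited table of 20911 gene models that marks 797 as sperm class, a germline expression class whose origin is not given in the sources used here. Of these, 39 carry an *msp*, *ssp* or *nspd* symbol and 3 are on the study's lists of germline nuclear RNAi targets, which left 755, and the 200 with the highest mean level over the 5 libraries were kept. Levels are in RPKM, reads per kilobase of gene model scaled to library depth. The genes were chosen by their mean RPKM over all 5 libraries, so how high they are is a description and not a finding.

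The study asked whether methylation of histone H3 lysine 9 by 3 methyltransferases is needed for silencing by nuclear RNAi, in which small RNAs carried by the germline Argonaute HRDE-1 repress genes in the nucleus. The 4 mutants were *set-32(ok1457)*, the double mutant *met-2(n4256);set-25(ok5021)*, the triple mutant with all 3 of these alleles (the double and the triple below), and *hrde-1*, whose allele the label writes as tm-1200. The reference was the wild-type strain N2. All animals were grown at 19 °C on OP50 bacteria, each genotype had 1 library, and all mutants share the same wild-type library. No difference below therefore has a replicate check, and 95% intervals of a ratio cover counting error only.

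A *C. elegans* hermaphrodite makes sperm during larval development, stores them and then switches the same germline to oocytes for the rest of adult life. Its sperm crawl rather than swim, and their motility rests on the major sperm proteins, here left out with the other short repeated families. Among the genes kept are kinases, phosphatases, chromatin proteins, membrane proteins and small proteins of unknown role. By young adulthood the making of sperm has ended or is about to end. Fewer sperm per animal and less RNA per cell cannot be told apart in whole-animal RNA.

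The libraries held an estimated 1.86 to 2.96 M reads, and 1 read on a 1-kb gene was worth 0.338 to 0.536 RPKM. For each of the 4 targeted genes the lowest library was one with that mutation, and reads remained in all of them. Markers of male somatic cells, 8 genes, summed to 0.41 to 1.56 RPKM in every library, with 3 of them at 0 throughout. All 200 sperm genes differ from each other in the table and map to 200 genes, 197 protein coding and 3 pseudogenes, of which 64 have a gene name and 136 are given by sequence name. Of these, 146 had a mean of at least 5 RPKM, 74 at least 10 and 39 at least 20. The median gene had 18.1 estimated reads in *set-32*, 13.4 in the double, 18.5 in the triple and 7.07 in *hrde-1*, against 13.5 in wild type, so most single genes are known only roughly.

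The sperm genes were highest in *set-32* and lowest in *hrde-1*. Their summed level was 4103 RPKM in *set-32*, 2793 in the double, 2698 in the triple and 1988 in *hrde-1*, against 2573 in wild type, which is 0.515% of all RPKM in *set-32*, 0.357% in the double, 0.342% in the triple and 0.263% in *hrde-1*, against 0.328% in wild type. The median gene stood at 10.8 RPKM in *set-32*, 8.35 in the double, 7.97 in the triple and 5.14 in *hrde-1*, against 7.34 in wild type. The number of genes with 5 RPKM or more was 174 in *set-32* and 102 in *hrde-1*, against 136 in wild type. Over all models the number was taken only at a lower threshold, 1 RPKM or more, so it gives no background for the counts at 5 RPKM. It was 13452 in *set-32* and 13036 in *hrde-1*, against 13272 in wild type. Of the 5 libraries, *set-32* held the highest value of 128 of the 200 genes, where it held that of 20.8% of the 13613 models that averaged 1 RPKM or more. The *hrde-1* library held the lowest value of 126, where it held that of 26.3% of all such models.

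**Figure D1:**
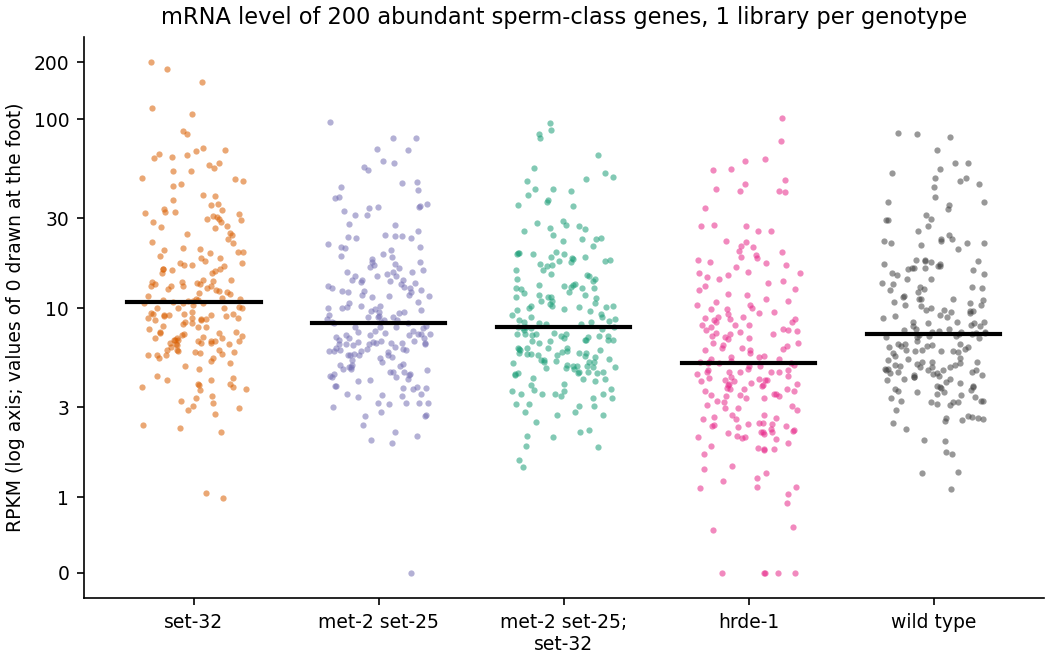
Levels of the 200 sperm-class genes (points, RPKM on a log axis with 0 drawn at the foot) in each of the 5 libraries, 1 per genotype, with the median as a bar. The bar is at 10.8 RPKM in *set-32* and at 5.14 in *hrde-1*, against 7.34 in wild type.

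The *set-32* library, mutant for this methyltransferase alone, was set against wild type. With 1 library per genotype, the mutation cannot be told apart from other differences between the libraries. The ratio used throughout is log2((mutant RPKM + 1)/(wild-type RPKM + 1)). Its median over the 200 genes was 0.60 (0.49 to 0.69, an interval across genes, which are not replicates), where all 13613 models had -0.02, and 159 genes lay above 0 and 41 below. A gene was called when it was at least 2-fold apart with at least 5 RPKM in the higher library. Of 180 genes that could be called, 37 were higher and 2 lower, where 4.19% of all models tested were higher and 2.14% lower. The counting interval also excluded 1 for 23 of the 37 and for neither of the 2, where 2.91% and 1.26% of all models met both conditions. With the genes ranked by the other 3 libraries only, a choice made after seeing the data, the median was 0.56 and 35 were higher.

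The distribution as a whole was shifted, rather than a tail of it. The middle part of the sperm genes, the quartiles, ran from 0.12 to 0.92. The 50 most abundant genes had a median of 0.78 and the other 150 had 0.54. The 307 less abundant sperm-class models that were measured had 0.31, and the 50 measured *msp*, *ssp* and *nspd* models had 1.14. The ranks rest on a mean that includes the *set-32* library, and the pseudocount pulls the ratios of low genes towards 0. These medians therefore cannot show a trend with abundance. With the 200 genes ranked by wild-type level alone the median was 0.46. The other germline classes lay on the other side of 0 in this library. The median was -0.31 for the 200 most abundant oocyte-class models and -0.23 for the 200 most abundant of the intrinsic class. That class holds genes of the germline without a sperm or oocyte bias. In the triple mutant the same oocyte-class and intrinsic-class models had -0.27 and -0.21, where the sperm genes had 0.05.

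**Figure D2:**
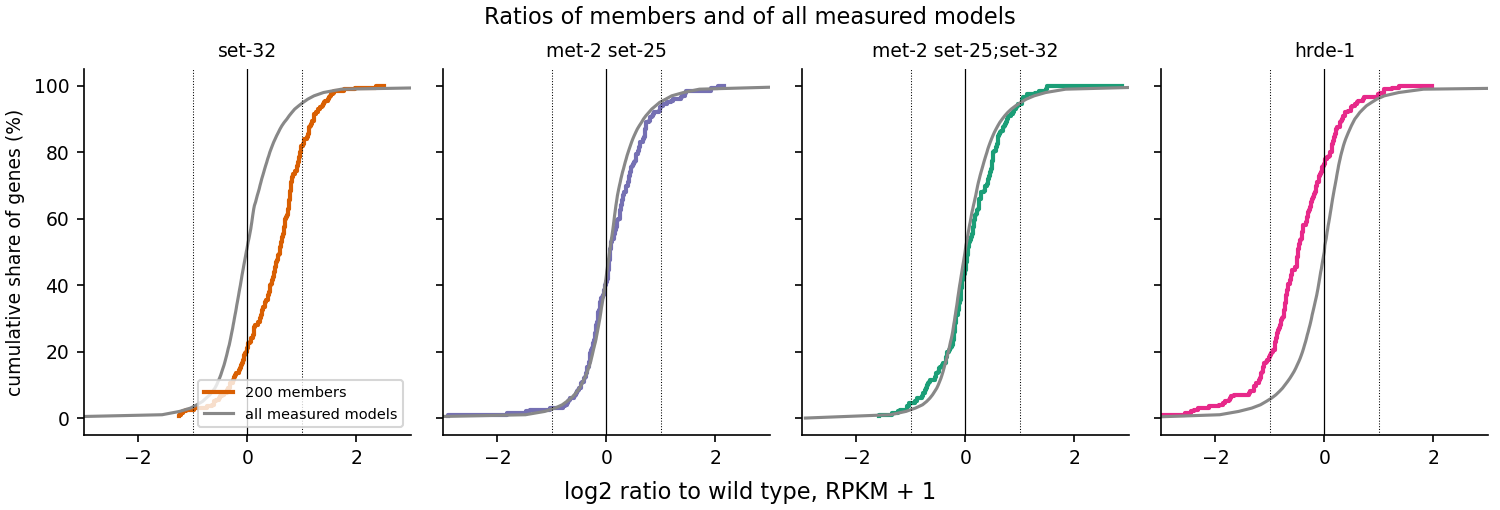
Cumulative share of the 200 sperm-class genes (coloured) and of all 13613 measured models (grey) by log2 ratio to wild type, 1 panel per mutant, with dotted lines at 2-fold. The sperm genes lie to the right in *set-32* (median 0.60), to the left in *hrde-1* (-0.48), and near the grey line in the double mutant (0.07) and the triple mutant (0.05).

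The *ssq* genes, a small sperm-specific family on chromosome IV, led the list. *ssq-4* (WBGene00006053, IV, 5016479 to 5017766, WBcel235) had 199.8 RPKM in *set-32*, 68.9 in the double, 95.2 in the triple and 41.6 in *hrde-1*, against 84.7 in wild type. Only *set-32* stood clearly above the other libraries for this gene, 2.36-fold above wild type (2.02 to 2.76), and *hrde-1* was 2.04-fold lower (1.59 to 2.64). *ssq-1* (IV, 9852550 to 9853609) had 184.2 RPKM in *set-32*, 69.9 in the double, 83.8 in the triple and 61.4 in *hrde-1*, against 68.3 in wild type, 2.69-fold higher in *set-32* (2.22 to 3.29). *ssq-2* (IV, 4996142 to 4997559) had 157.3 RPKM in *set-32*, 60.1 in the double, 79.8 in the triple and 45.3 in *hrde-1*, against 83.3 in wild type. The lowest of the family, *ssq-3* (IV, 7111604 to 7112885), had 86.2 RPKM in *set-32*, 38.1 in the double, 49.6 in the triple and 18.4 in *hrde-1*, against 45.3 in wild type. All 4 were thus highest in *set-32* and lowest in *hrde-1*, with the other 3 libraries in between. The 4 genes may share reads, so they are uncertain one by one, and *ssq-4* overlaps the sperm gene T28H11.7 on the opposite strand. Their sum, which sharing among them does not change, was 627.4 RPKM in *set-32*, 236.9 in the double, 308.4 in the triple and 166.7 in *hrde-1*, against 281.6 in wild type.

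Both *gipc* genes had the same highest and lowest libraries as the *ssq* genes. They encode homologs of GIPC, a PDZ-domain adaptor protein. *gipc-1* (III, 4870778 to 4872261) had 63.1 RPKM in *set-32*, 34.8 in the double, 37.5 in the triple and 10.4 in *hrde-1*, against 36.4 in wild type, 3.49-fold lower in *hrde-1* (2.16 to 5.91). *gipc-2* (IV, 10026413 to 10027666) had 67.8 RPKM in *set-32*, 46.5 in the double, 51.98 in the triple and 27.3 in *hrde-1*, against 38.97 in wild type. The 2 genes lie on different chromosomes and had nearly the same ratio in *set-32*, 0.78 on the log2 scale for each.

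The 4 *nsph* genes, a nematode-specific peptide family, were all higher in *set-32* (median log2 ratio 0.88) and all below 0 in *hrde-1* (-0.48). *nsph-3.2* (IV, 10112870 to 10114287) had 70.1 RPKM in *set-32*, 35.4 in the double, 39.7 in the triple and 27.7 in *hrde-1*, against 35.3 in wild type. *nsph-3.1* had 45.5 RPKM in *set-32*, 23.5 in the double, 19.4 in the triple and 14.3 in *hrde-1*, against 17.99 in wild type, and was the only one of the 4 past 2-fold in *set-32* (2.53, 1.80 to 3.61). In both genes *set-32* stood apart from the other 4 libraries.

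R09E10.6 (IV, 10292928 to 10294130) had 64.9 RPKM in *set-32*, 41.96 in the double, 42.8 in the triple and 22.3 in *hrde-1*, against 49.1 in wild type, and was among the 31 genes called lower in *hrde-1* (2.20-fold, 1.504 to 3.28). Y59E9AR.7 (IV, 5241402 to 5241794) had 115.1 RPKM in *set-32*, 79.9 in the double, 64.7 in the triple and 41.4 in *hrde-1*, against 58.5 in wild type. C04F12.7 (I, 9695707 to 9696762) had 58.8 RPKM in *set-32*, 43.99 in the double, 28.9 in the triple and 27.2 in *hrde-1*, against 48.9 in wild type. In this last gene the triple mutant was as low as *hrde-1*, with an interval of its ratio to wild type of 0.406 to 0.855.

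**Figure D3:**
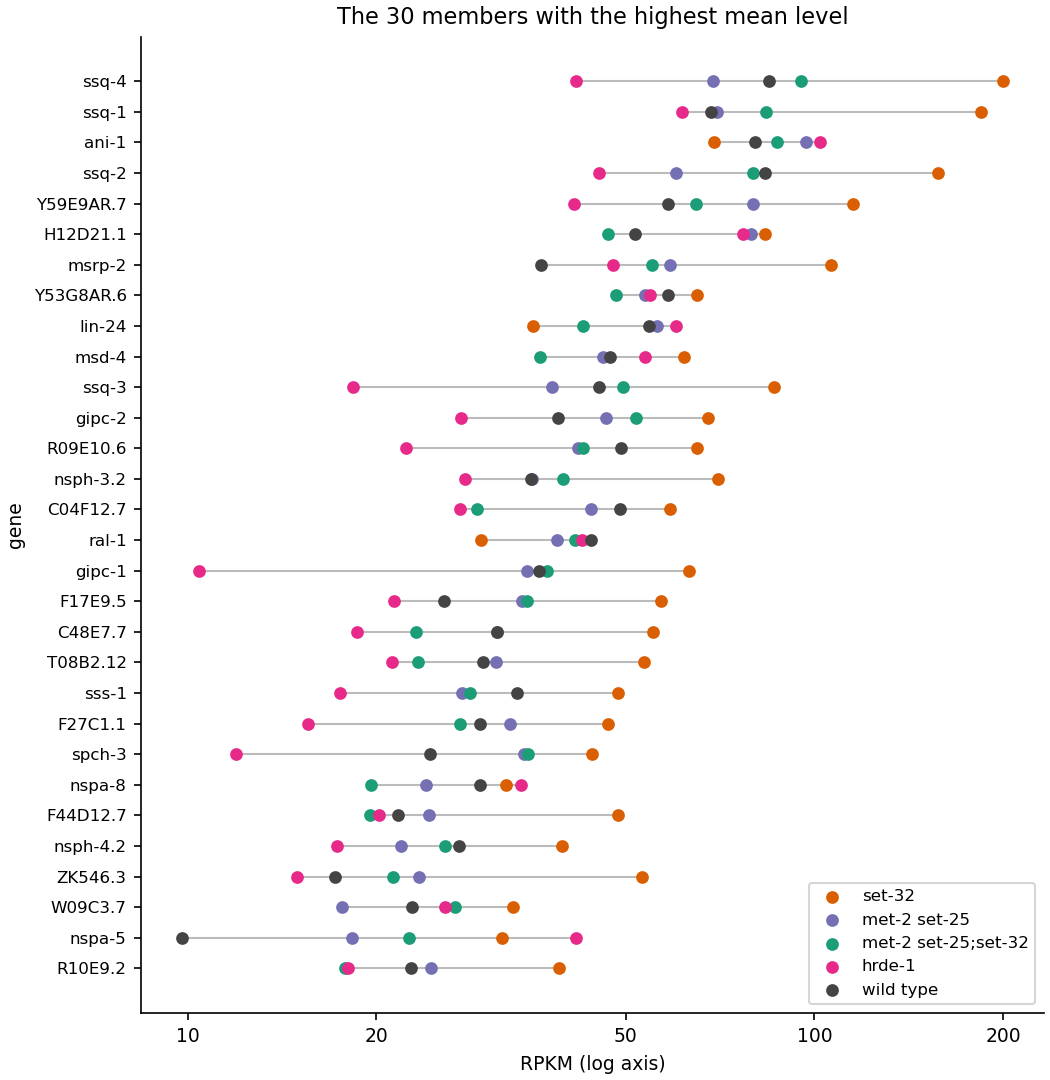
RPKM (log axis) of the 30 sperm-class genes with the highest mean, 1 point per library. The *set-32* point is the highest of the 5 in 25 of the 30 genes and the *hrde-1* point the lowest in 18, while *ani-1*, *lin-24* and *ral-1* have *set-32* as their lowest point.

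The family *nspa*, nematode-specific peptide family a, has 4 models among the 200, and 3 of them, *nspa-5*, ZC412.7 and H12D21.1, lie within chromosome V, 14878348 to 14886907. H12D21.1, one of 2 models for which the annotation gives the symbol *nspa-1*, had 83.5 RPKM in *set-32*, 79.2 in the double, 46.9 in the triple and 76.8 in *hrde-1*, against 51.7 in wild type. *nspa-5* had 31.7 RPKM in *set-32*, 18.3 in the double, 22.6 in the triple and 41.7 in *hrde-1*, against 9.80 in wild type. In *hrde-1* all 4 *nspa* models were above 0 (median 0.39 on the log2 scale). Their coding length is 102 nt, so *nspa-5* rested on 2.5 estimated reads in wild type, and the intervals of all 4 ratios in *hrde-1* include 1. In the triple mutant 2 of the 4 were above 0 and 2 below. The pair named *msrp* was above wild type in every mutant. *msrp-2* (I, 6087430 to 6087729) had 106.4 RPKM in *set-32*, 58.7 in the double, 54.99 in the triple and 47.6 in *hrde-1*, against 36.6 in wild type, 2.91-fold higher in *set-32* (1.85 to 4.72) with an interval that included 1 in the other mutants. *msrp-1*, with 16.1 RPKM in *set-32*, 13.6 in the double, 11.4 in the triple and 16.9 in *hrde-1*, against 7.37 in wild type, was called higher in both *set-32* and *hrde-1*, and its intervals included 1.

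Genes with a known role in sperm were grouped into 7 lists of 79 names, of which 62 were matched and 23 are among the 200. Motility and cytoskeleton genes make up 5 of the 23, all above 0 in *set-32* with a median of 0.87. *msd-4* (III, 4868414 to 4868743), a small protein with a major sperm protein domain, had 62.0 RPKM in *set-32*, 45.9 in the double, 36.5 in the triple and 53.6 in *hrde-1*, against 47.2 in wild type. F44D12.7, which the annotation calls *msd-1* and RefSeq *msd-3*, had 48.5 RPKM in *set-32*, 24.2 in the double, 19.6 in the triple and 20.2 in *hrde-1*, against 21.6 in wild type. The level of F44D12.7 in *set-32* was 2.24-fold above wild type (1.24 to 4.22), with the other 4 libraries in a narrow band.

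The phosphatases GSP-3 and GSP-4 are near-identical sperm isoforms of protein phosphatase 1, so their reads are uncertain one by one. *gsp-3* had 17.7 RPKM in *set-32*, 12.2 in the double, 11.5 in the triple and 8.99 in *hrde-1*, against 8.08 in wild type. *gsp-4* had 18.8 RPKM in *set-32*, 10.7 in the double, 12.9 in the triple and 7.68 in *hrde-1*, against 9.84 in wild type. Both were highest in *set-32*, and only *gsp-3* passed 2-fold. *spe-15*, the myosin VI that segregates components during sperm budding, had 13.1 RPKM in *set-32*, 10.1 in the double, 12.1 in the triple and 6.01 in *hrde-1*, against 7.32 in wild type. Its ratio in the triple mutant, 1.66 (1.23 to 2.26), was close to that in *set-32*, 1.78 (1.30 to 2.46).

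Sperm chromatin genes were on both sides of wild type. SPCH proteins are small basic proteins of sperm chromatin. *spch-3* (I, 6098927 to 6099731) had 44.2 RPKM in *set-32*, 34.4 in the double, 35.0 in the triple and 11.9 in *hrde-1*, against 24.3 in wild type. *spch-2* (I, 6274530 to 6275291) had 30.4 RPKM in *set-32*, 21.2 in the double, 26.2 in the triple and 9.52 in *hrde-1*, against 13.6 in wild type. Both were above wild type in the 3 methyltransferase mutants and below it in *hrde-1*. *htas-1* (IV, 9682984 to 9683533), a sperm variant of histone H2A, differed from them, with 9.31 RPKM in *set-32*, 2.21 in the double, 3.95 in the triple and 1.27 in *hrde-1*, against 10.4 in wild type. It was called lower in the other 3 mutants, 4.70-fold in the double (1.04 to 42.1), 2.63-fold in the triple (0.852 to 9.53) and 8.18-fold in *hrde-1* (1.22 to 321), where it rested on about 1 read. The sperm meiosis PDZ genes *smz-1* and *smz-2* stood at log2 ratios of 0.69 and 0.68 in *set-32*.

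Of 10 genes of the fibrous body-membranous organelles, the structures that store major sperm protein in the spermatocyte, *spe-5* and *spe-18* are among the 200. *spe-18* (II, 13151459 to 13153399) had 10.4 RPKM in *set-32*, 10.3 in the double, 13.1 in the triple and 7.74 in *hrde-1*, against 4.76 in wild type. *spe-5*, a B subunit of the vacuolar proton pump, had 7.22 RPKM in *set-32*, 9.01 in the double, 7.34 in the triple and 8.84 in *hrde-1*, against 3.85 in wild type. In both genes the wild-type library was the low one, and all 4 mutants lay above it. The 7 matched genes of this list, among the 200 or not, were not all like these. Their median log2 ratio was -0.01 in *set-32* (3 of 7 above 0) and 0.78 in the double (7 above 0). It was 0.57 in the triple (4 above 0) and -0.07 in *hrde-1* (3 above 0). Only 3 of the 7 reached 5 RPKM in any library. The interval of *spe-18* excluded 1 in all mutants other than *hrde-1*, and *spe-5*, which overlaps *ift-20*, had intervals above 1 in the double mutant (1.20 to 4.76) and *hrde-1* (1.15 to 4.75).

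Of the list of spermatogenesis regulators, *spe-44* and *alg-3* are among the 200, and both had a ratio below 0 in *set-32*. *spe-44* (IV, 12452063 to 12454215), a transcription factor gene of the spermatogenesis programme, had 8.82 RPKM in *set-32*, 13.1 in the double, 13.9 in the triple and 15.3 in *hrde-1*, against 15.3 in wild type, 1.74-fold lower in *set-32* (1.05 to 2.93). Its neighbour *smz-1*, which lies within 10 kb of it, had 24.6 RPKM in *set-32*, 12.9 in the double, 18.4 in the triple and 16.5 in *hrde-1*, against 14.9 in wild type. The 2 neighbours were thus at opposite ends of their ranges in *set-32*. *alg-3*, an Argonaute gene of the male germline, had 3.43 RPKM in *set-32*, 4.59 in the double, 4.26 in the triple and 2.45 in *hrde-1*, against 3.53 in wild type, with all intervals across 1. The activation gene *spe-46* had 3.17 RPKM in *set-32*, 3.87 in the double, 4.49 in the triple and 2.22 in *hrde-1*, against 4.96 in wild type. The paternal egg-activation factor *spe-11* had 12.3 RPKM in *set-32*, 4.75 in the double, 8.28 in the triple and 4.23 in *hrde-1*, against 7.66 in wild type. No interval of *spe-46* or *spe-11* excluded 1. Each list was also taken whole, beyond the 200. In *set-32* the regulators then had a median log2 ratio of -0.02, with 4 of 10 above 0. The activation list had 0.08 with 6 of 11, and fertilization and egg activation 0 with 4 of 9. Only 2 models on each of these 2 lists reached 5 RPKM. Motility and cytoskeleton genes had 0.75 with 7 of 8, sperm chromatin 0.76 with 5 of 6, and the list that holds the *ssq* genes 0.82 with 9 of 11.

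In 3 of the 30 most abundant genes *set-32* was the lowest library. The gene *ani-1*, which encodes anillin, a scaffold of the contractile ring in embryos and the oogenic germline, was the most abundant after *ssq-4* and *ssq-1*. It had 69.1 RPKM in *set-32*, 97.1 in the double, 87.2 in the triple and 102.0 in *hrde-1*, against 80.3 in wild type, and its ratio of 0.860 in *set-32* (0.768 to 0.964) and of 1.27 in *hrde-1* (1.14 to 1.42) ran opposite to the *ssq* genes. *lin-24*, which overlaps B0001.4 on the opposite strand, had 35.5 RPKM in *set-32*, 56.0 in the double, 42.7 in the triple and 60.2 in *hrde-1*, against 54.5 in wild type. *ral-1*, a Ras-like GTPase, had 29.4 RPKM in *set-32*, 38.9 in the double, 41.5 in the triple and 42.5 in *hrde-1*, against 44.02 in wild type. Of these 3, *ani-1* lay above wild type in *hrde-1* with an interval above 1, while *ral-1* lay slightly below it. Other genes were level, such as Y53G8AR.6, with 65.0 RPKM in *set-32*, 53.6 in the double, 48.3 in the triple and 54.7 in *hrde-1*, against 58.4 in wild type. *rpn-6.2*, a proteasome lid subunit gene, ranged over 12.99 to 16.3 RPKM in all libraries.

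The largest ratios in *set-32* belonged mostly to genes with few reads. Y67A6A.1 (I, 9829762 to 9830569) had 10.96 RPKM in *set-32*, 8.47 in the double, 1.86 in the triple and 4.47 in *hrde-1*, against 1.11 in wild type, where it rested on about 1 read, and its log2 ratio of 2.50 had an interval of 1.39 to 409 as a fold. R07E5.15 (III, 4401442 to 4402507) had 12.6 RPKM in *set-32*, 4.79 in the double, 5.68 in the triple and 3.93 in *hrde-1*, against 2.47 in wild type (5.10-fold, 1.83 to 18.1). The pseudogene ZK546.3 (II, 4939899 to 4940282) had 53.1 RPKM in *set-32*, 23.4 in the double, 21.2 in the triple and 14.9 in *hrde-1*, against 17.2 in wild type, a 3.09-fold excess with an interval of 1.73 to 5.80 and thus the best counted of the 6 largest. F55D12.6, which overlaps *unc-55*, F36H12.4 and *nspa-5* complete the 6, with 1.3 to 2.5 reads in wild type. At the other end, C09B9.2 and F58H1.6 were the 2 genes called lower. C09B9.2 had 2.75 RPKM in *set-32*, 4.91 in the double, 4.55 in the triple and 1.12 in *hrde-1*, against 7.13 in wild type, and F58H1.6 had 2.21 in *set-32*, 6.78 in the double, 4.21 in the triple and 0.67 in *hrde-1*, against 6.29 in wild type. F59A6.2, C47A4.5 and Y47G6A.3 were the other low ones, and their intervals included 1.

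In *hrde-1*, mutant for the Argonaute of germline nuclear RNAi, the median log2 ratio was -0.48 (-0.60 to -0.39 across genes), where all measured models had -0.00, with 48 genes above 0 and 151 below. Of 142 genes that could be called, 4 were higher and 31 lower, where 2.68% of all models tested were higher and 3.55% lower. The interval excluded 1 for 1 of the 4 (*spe-5*) and 18 of the 31, where 1.52% and 2.14% of all models met both conditions. The less abundant sperm-class models had a median of -0.43 and the *msp*, *ssp* and *nspd* models one of -0.22. The 200 most abundant models of the oocyte class had -0.00 and of the intrinsic class -0.01. This library was the shallowest, with 7.07 reads at the median gene.

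Besides *ssq-3*, *ssq-4*, *gipc-1*, R09E10.6 and *htas-1*, the 31 held *cylc-1*, a cylicin homolog, *cyc-2.2*, a cytochrome c, and 3 genes of the tau-tubulin kinase family. *cylc-1* (IV, 5224894 to 5225772) had 29.6 RPKM in *set-32*, 25.6 in the double, 14.9 in the triple and 8.69 in *hrde-1*, against 22.1 in wild type (2.55-fold lower in *hrde-1*, 1.25 to 5.68). *cyc-2.2* had 37.2 RPKM in *set-32*, 21.12 in the double, 13.3 in the triple and 9.96 in *hrde-1*, against 23.3 in wild type, with an interval that included 1 in *hrde-1* (0.957 to 6.58 for wild type over *hrde-1*). Both were also below wild type in the triple mutant, where no interval excluded 1. The 6 *ttbk* genes all lie on chromosome IV, and 5 of them were below 0 in *hrde-1* (median -0.65). The most abundant, *ttbk-8.2*, had 30.6 RPKM in *set-32*, 16.6 in the double, 17.6 in the triple and 7.92 in *hrde-1*, against 17.1 in wild type (2.16-fold lower, 1.14 to 4.34). *cylc-2* had 13.7 RPKM in *set-32*, 9.44 in the double, 3.04 in the triple and 4.18 in *hrde-1*, against 7.28 in wild type.

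The sperm-specific transcripts *sss-1* and *sss-2* were below wild type in *hrde-1* as well. *sss-1* (IV, 9892739 to 9893749) had 48.6 RPKM in *set-32*, 27.4 in the double, 28.2 in the triple and 17.5 in *hrde-1*, against 33.5 in wild type, and did not reach 2-fold (1.92, 1.21 to 3.11). The annotated pseudogene *sss-2* had 8.63 RPKM in *set-32*, 14.1 in the double, 9.68 in the triple and 1.86 in *hrde-1*, against 6.02 in wild type. C15H11.1 (V, 14393804 to 14394463) was at 0 in *hrde-1*, with 7.37 RPKM in *set-32*, 6.57 in the double mutant and 9.37 in the triple mutant, against 8.97 in wild type. With the 0 set to the 4.395 RPKM that 3 reads would give, it was 2.04-fold lower, a value that leaves out the counting error of wild type. ZK84.5, C34F11.2 and F36D1.4 were also at 0 there, with 4.24 to 4.87 RPKM in wild type, and their intervals include 1, so no difference was detectable at this depth.

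The double mutant and the triple mutant stood close to wild type as groups. In the double mutant the median was 0.07 (0.03 to 0.19 across genes), where all measured models had 0.06. Of 169 genes that could be called, 14 were higher and 5 lower, where 3.3% of all models tested were higher and 1.6% lower, and the interval also excluded 1 for 8 and 2, where 1.94% and 0.925% of all models did so. In the triple mutant the median was 0.05 (-0.03 to 0.15), where all models had -0.00, and 12 of 166 were higher and 8 lower, where 3.76% and 1.7% of all models were, with an interval that also excluded 1 for 6 and 2, where 2.49% and 0.946% of all models did so. By the 2-fold rule alone, the shares called higher and called lower were both above those of all models in both mutants, while the medians were near theirs. With the interval also required, the share called lower was close to that of all models in both mutants. The part of counting error in these calls was not tested.

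Among genes higher in the double mutant were both adenine nucleotide translocators of the list, carriers that exchange ADP and ATP across the mitochondrial membrane. *ant-1.4* (IV, 8459178 to 8460308) had 4.79 RPKM in *set-32*, 12.8 in the double, 6.94 in the triple and 6.15 in *hrde-1*, against 2.62 in wild type (4.88-fold, 1.97 to 14.4). *ant-1.3* (IV, 9708168 to 9709305) had 7.51 RPKM in *set-32*, 13.8 in the double, 7.01 in the triple and 3.09 in *hrde-1*, against 4.62 in wild type (2.98-fold, 1.43 to 6.69). In both the double mutant was the highest library, and near-identical coding sequences of such carriers may share reads. *kin-35*, a kinase gene chosen after its values were seen, had 5.15 RPKM in *set-32*, 18.9 in the double, 8.38 in the triple and 6.30 in *hrde-1*, against 7.52 in wild type (2.51-fold, 1.53 to 4.23).

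F52F12.5, which RefSeq calls *spe-58*, was at 0 in the double, with 12.2 RPKM in *set-32*, 6.19 in the triple and 4.96 in *hrde-1*, against 6.48 in wild type. Set to the 3.18 RPKM of 3 reads, the double mutant was 2.04-fold lower, a value that leaves out the counting error of wild type. The other genes with the lowest ratios in the double mutant, beside *htas-1*, were Y71G12B.27, K05F1.9, Y46G5A.14 and F53G12.8, and all their intervals included 1. F35H8.4, F36H12.5, Y67A6A.1, F55D12.6 and C47A4.5 were the other highest ones, with 1.0 to 2.6 reads in wild type, and only the interval of F55D12.6 excluded 1.

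C55C3.3 (IV, 5685287 to 5688273) had another pattern. It had 2.32 RPKM in *set-32*, 9.60 in the double, 27.6 in the triple and 1.77 in *hrde-1*, against 2.91 in wild type. The 2 libraries that lack *met-2* and *set-25* were thus high and the other 3 low. Its fold over wild type was 3.299 in the double mutant (1.61 to 7.29) and 9.49 in the triple mutant (5.12 to 19.6), and the triple mutant was 2.88-fold above the double mutant (1.93 to 4.42). With 123.5 estimated reads in the triple mutant against 10.9 in wild type, it was the best counted of the 6 highest ratios there, among which the intervals of F55D12.6, F35H8.4, F36H12.5 and *clc-10* included 1. The lowest ratios in the triple mutant were those of K01D12.15, F02E9.3, *sgnh-1*, *htas-1*, Y43F8C.9 and E03H12.5. E03H12.5 (IV, 4977226 to 4978084) had 18.4 RPKM in *set-32*, 12.2 in the double, 7.93 in the triple and 6.15 in *hrde-1*, against 17.8 in wild type, and it and F02E9.3 were the ones whose interval excluded 1 in the triple mutant.

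Libraries with and without the *set-32* allele could be compared in 2 backgrounds that share no library, *set-32* over wild type and the triple mutant over the double mutant. The median was 0.60 in the otherwise wild-type background and -0.06 (-0.12 to 0.04) in the *met-2 set-25* background, where all measured models had -0.06. In the *met-2 set-25* background 8 of 175 genes were called higher and 12 lower, where 2.13% and 1.77% of all models tested were. The interval also excluded 1 for 3 and 5, where 1.18% and 1.01% of all models did so. Of the 159 genes above 0 in the wild-type background, 77 were above 0 in the other and 82 below. The same numbers over all 13613 measured models were 3489 and 3064. Over the 200 genes Pearson's r was 0.05 and Spearman's rho 0.09, and over all measured models r was 0.15 and rho 0.21, which are given as a description without a test. The difference between the backgrounds was not tested, since each had 1 library a genotype.

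**Figure D4:**
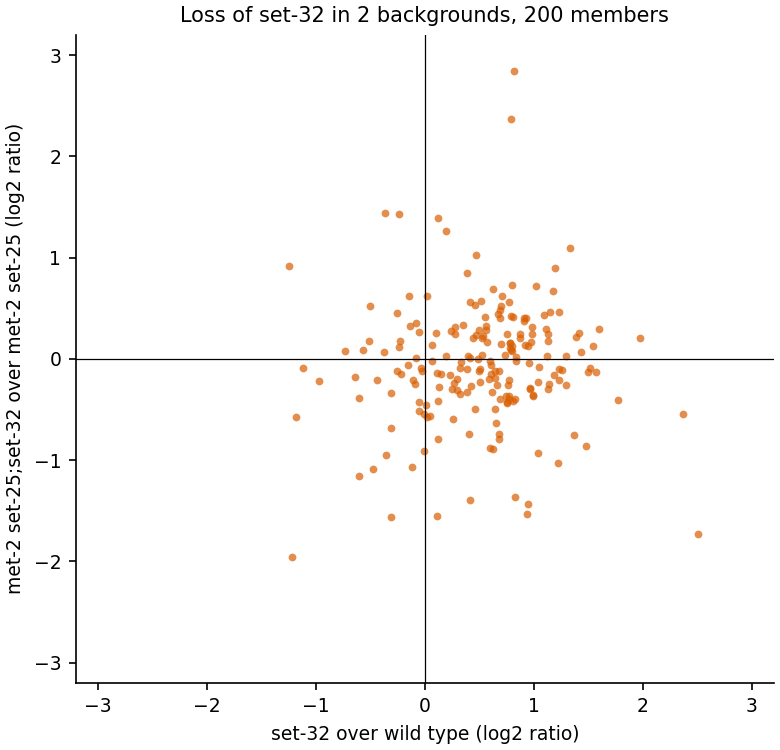
Each point is 1 of the 200 sperm-class genes, placed by its log2 ratio of *set-32* to wild type (horizontal) and of the triple mutant to the double mutant (vertical), from 4 separate libraries. Of the genes right of 0, 77 lie above the horizontal line and 82 below it.

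Set against *set-32* itself, the same triple mutant library was lower, with a median of -0.44 (-0.53 to -0.35 across genes), where all measured models had 0.01. Both libraries were already set against wild type, with medians of 0.60 in *set-32* and 0.05 in the triple mutant. This comparison is therefore not independent of those. Of 183 genes that could be called, 2 were higher and 32 lower, where 2.73% and 2.60% of all models tested were, and the interval also excluded 1 for 1 and 26, where 1.76% and 1.72% of all models did so. The summed level was 2698 RPKM in the triple mutant, against 4103 in *set-32*. The high sperm RNA of the *set-32* library was thus not present in the other library that carried the *set-32* allele.

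Some lists of genes that mark other cells and stages also moved in the same libraries, and some lay near wild type. Models are not all separate genes, as the 8 vitellogenin models are of 6 genes and the 7 body-wall muscle models of 5. In *set-32*, oocyte markers (8 models) had a median log2 ratio of -0.24, with none of 8 above 0, vitellogenin models 0.45 with 8 of 8 above 0, and cuticle collagens (111 models) -0.58 with 37 above 0. The summed collagen level went the other way, with 56561 RPKM in *set-32* against 45391 in wild type. Body-wall muscle markers had a median of 0.09 in *set-32*, with 6 of 7 above 0. Intestine markers had -0.10 with 3 of 6, and neuron markers 0.01 with 3 of 6. In *hrde-1*, oocyte markers had 0.24 with 8 of 8 above 0, vitellogenin 0.33 with 8 of 8, body-wall muscle markers (7 models) -0.48 with none above 0, and collagens -1.03 with 10 of 111 above 0. Intestine markers had -0.21 in *hrde-1* with 3 of 6 above 0, and neuron markers -0.45 with 2 of 6. In the triple mutant, where the sperm genes stood near wild type, oocyte markers had -0.20 with none of 8 above 0 and vitellogenin 0.29 with 8 of 8. Collagens had 0.12 in the triple mutant with 65 of 111 above 0, and body-wall muscle markers -0.00 with 3 of 7. Its intestine markers had 0.33 with 5 of 6, and its neuron markers -0.21 with 2 of 6. In the double mutant oocyte markers had 0.08 with 6 of 8 above 0 and vitellogenin -0.13 with 1 of 8. Collagens had -0.29 there with 24 of 111, and body-wall muscle markers -0.16 with none of 7. Intestine markers had 0.18 in the double mutant with 5 of 6, and neuron markers -0.01 with 2 of 6. The summed oocyte marker level was 2647 RPKM in *set-32*, 3250 in the double, 2719 in the triple and 3686 in *hrde-1*, against 3110 in wild type. The part of these in the sperm differences, and that of animal age, was not tested.

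The chromosomes of the 200 genes differed from those of the genome as a whole. Chromosome IV held 62 (31%), where it holds 16.2% of all matched genes, and chromosome I held 55 (27.5%), where it holds 14.3%. Chromosomes II, III and V held 33, 25 and 25. None lay on the X chromosome, which holds 13.6% of all matched genes. The absence from X was shared by the 200 most abundant oocyte-class models, also with 0, and nearly by those of the intrinsic class, with 1, while their share on IV was 14% and 16.5%. The less abundant eligible sperm-class models were likewise on IV in 30.5% and on X in 0. In *set-32* the median log2 ratio of the sperm genes was 0.71 on I, 0.65 on II, 0.39 on III, 0.51 on IV and 0.64 on V, so that the excess was not that of 1 chromosome.

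**Figure D5:**
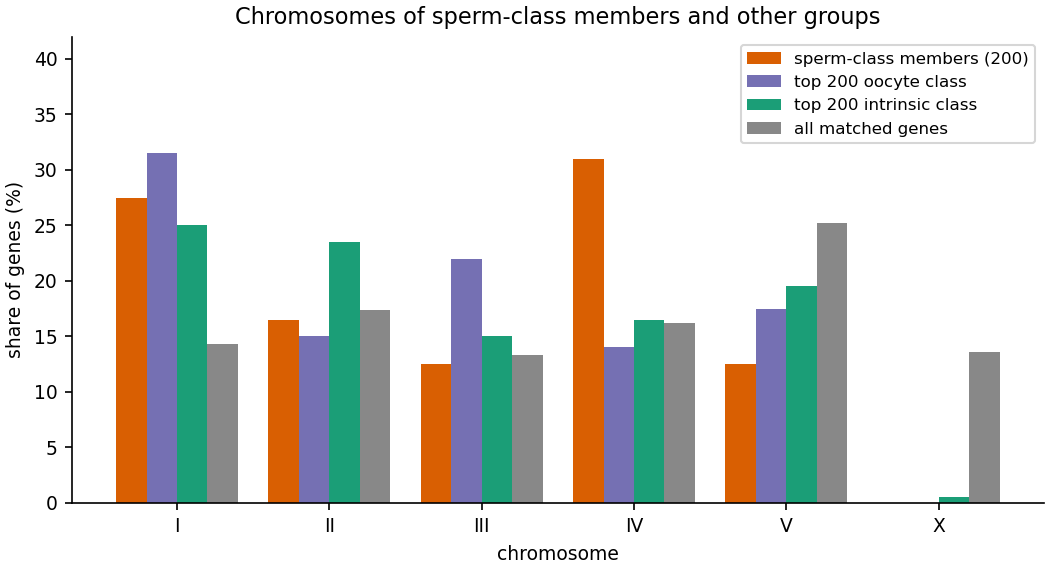
Share of genes (%, bars from 0) on each chromosome for the 200 sperm-class genes, the 200 most abundant oocyte-class and intrinsic-class models and all matched genes. The sperm-class bar on IV is at 31%, against 16.2% for all genes, and there is no sperm-class bar on X.

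The median coding length of the genes was 783 nt, where all matched genes had 1014 nt, the less abundant eligible sperm-class models 1035 nt, the *msp*, *ssp* and *nspd* families 381 nt, the oocyte class 1077 nt and the intrinsic class 1179 nt. Of the 200, 50 lay within 10 kb of another of them, in 23 runs of 2 or 3 genes. One run on IV, from 4977226 to 4997559, joined E03H12.5, E03H12.7 and *ssq-2*, and another on III, from 4868414 to 4872261, *msd-4* and *gipc-1*. The 200 most abundant models of the oocyte class had 32 such neighbours and those of the intrinsic class 37, and of the 52 models of the *msp*, *ssp* and *nspd* families 29 lay as near to another of them. In *hrde-1* *msd-4* was at a log2 ratio of 0.18 and *gipc-1* at -1.71, so neighbours could lie on opposite sides.

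The limit of 200 fell within a dense range of means. The last genes inside it were T05F1.5 at 3.66 RPKM, *alg-3* at 3.65 and F59A6.2 at 3.65, and the next ones outside were F32B4.2 at 3.63, F20H11.4 at 3.62 and R09E10.2 at 3.62. Of the 200, 29 overlap exons of another gene, 27 of them on the opposite strand. The counting strand is not stated, so reads of such pairs cannot be told apart. Without these 29, a choice made after seeing the data, the median was 0.64 in *set-32* and -0.49 in *hrde-1*.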

How the data were processed

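Poly(A)-selected RNA of 5 whole-animal samples was sequenced, 1 library per genotype. The authors used Bowtie 0.12.7 and genome release WS190, allowed no mismatch, gave each of N alignments of a read an equal part, and deposited RPKM per gene model with 2 decimals. Strand, annotation and lengths behind the RPKM are not given in the sources used here. Library columns were assigned to genotypes with the study's list of libraries.

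Positions and symbols came from Ensembl release 115 of WBcel235, joined on sequence names, or from RefSeq, with 20312 of 20911 models found. Read numbers were estimated from the steps between low RPKM values and coding lengths. Between 52.5% and 55.3% of low values were whole reads within 0.1, where 20% would be by chance, so they are approximate. Ratios used log2 with a pseudocount of 1 RPKM, and 95% Clopper-Pearson intervals of ratios came from the estimated reads. Models were measured at a mean of 1 RPKM and called at 2-fold with 5 RPKM in the higher library. With 1 library per genotype no test was made. The floor for a value of 0 was 3 reads.

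The members and lists were chosen with earlier results of these data known. Genes named by rule were the 15 most abundant members, in each mutant the 6 members highest and the 6 lowest by ratio, the members next to the limit and those on the sperm lists, and other genes were named after their values were seen. Promoter sequences were not analysed here. The procedure was tested on simulated data with whole reads and known lengths. That did not cover reads split among alignments, or lengths other than those assumed. Python 3.11.15, pandas 2.3.3, numpy 2.4.6, scipy 1.17.1 and matplotlib 3.10.9 were used.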

Additional observations from a re-analysis of the deposited data

How the results depend on the processing

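Across all alternatives the median log2 ratio stayed above 0 in *set-32* over wild type (0.40 to 0.69) and below 0 in *hrde-1* over wild type (-0.64 to -0.30) and in the triple mutant over *set-32* (-0.53 to -0.29). For the double over wild type it ranged over 0.01 to 0.14, and for the triple over wild type over -0.03 to 0.07. The share of genes highest in *set-32* was 50.1% to 73.0% and that lowest in *hrde-1* 57.8% to 68.5%. Of 696 alternative values of named genes, 688 stayed within the counting interval of the reported value and 7 moved out of it. The remaining 1 changed sign in a gene that was called. Sign changes of genes that were not called were not counted apart.

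With a pseudocount of 5 the median was 0.42 in *set-32*, -0.30 in *hrde-1* and -0.32 in the triple mutant over *set-32*, and genes at least 2-fold higher and lower numbered 15 and 0 in *set-32*, 4 and 2 in the double, 1 and 1 in the triple, 1 and 7 in *hrde-1*, 3 and 4 for the triple over the double mutant, with 17 lower for the triple mutant over *set-32*. With at least 20 RPKM required the numbers were 13 and 0, 1 and 0, 3 and 0, 1 and 7, 1 and 1, and 1 and 12 in the same comparisons. With 100 genes in place of 200 they were 18 and 0, 4 and 1, 4 and 2, 2 and 17, 2 and 4, and 1 and 17, with medians of 0.69 in *set-32* and -0.53 in the triple mutant over *set-32*.

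With genes ranked by wild-type level alone the medians were 0.46 in *set-32*, 0.030 in the double, -0.033 in the triple and -0.63 in *hrde-1*, with 23 higher in *set-32*, 6 in the double and 4 in the triple. With all eligible models the medians were 0.40 in *set-32* and -0.29 in the triple mutant over *set-32*, and 13 were higher in the triple over the double mutant. With no filter 4 were lower in *set-32*. Rescaling gave a median of 0.012 in the double mutant. With ratios taken to the median of the 4 other libraries, 1 was lower in *set-32*, 8 were higher in the double mutant, 3 higher and 5 lower in the triple mutant and 0 higher in *hrde-1*, whose median was -0.64, and F55D12.6 turned to -0.20 in the triple mutant. The cause of these shifts was not tested.

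No paired analysis was possible because each genotype had 1 library, so no library could be left out either. The limits are the depth of 1.86 to 2.96 M estimated reads, reads shared among gene copies and the shared wild-type library.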
